A study of Mus musculus with 19 samples.

Results

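Imprinted genes are expressed mainly or wholly from 1 parental allele, and 43 of them were taken by symbol from the 55416 genes of the count table. A mean level of at least 0.5 CPM (counts scaled to a common library total after TMM normalization) was reached by 41 of the 43, and all 41 were among the 18878 genes that passed the filter on low counts. The 2 left out for their level were Rtl1, at a mean of 0.0737 CPM, and Kcnq1, at 0.0920 CPM. The 41 comprised 22 genes known in the mouse to be expressed from the paternal allele, 10 from the maternal allele and 9 whose imprinting is limited to certain tissues or transcripts. The counts did not separate the parental alleles, so every value given here is the level of both alleles together.

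The study sequenced RNA from 19 mouse embryonic stem cell (mESC) lines, each founded by 1 isolated blastomere at the 8-cell stage, to compare lines from sister blastomeres. Embryo 3 gave 7 lines (3.1 to 3.7), embryo 2 gave 7 lines (2.1 to 2.7) and embryo 1 gave 5 lines (1.1 to 1.5), with 1 poly-A library per line. All embryos came from crosses of B6CBAF1/J females and B6CBAF1/J males, so their alleles were a mixture of the C57BL/6 and CBA strains. All lines were grown on human HFF-1 foreskin fibroblasts in medium with knockout serum replacement, LIF, the MEK inhibitor PD0325901 and the TGF-β receptor inhibitor SB431542 (KSR + R2i), and before RNA extraction most feeder cells were left behind on gelatin, to which they attach sooner than mESCs. The study further divided the lines into group I (11 lines) and group II (8 lines) from principal component and network clustering of these same libraries, and line 2.2 was placed in group II by the network alone. A line is 1 clone, so lines served as replicates of an embryo or a group, and p-values measure the spread between sister lines. Each embryo comparison rests on 1 embryo against 1 embryo, and anything shared by the lines of an embryo cannot be told apart from the embryo itself.

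Most imprints are DNA methylation marks laid down in the germ line of 1 parent at imprinting control regions. They decide which allele of a cluster is read. After fertilization the marks have to survive a genome-wide loss of methylation. In the mouse this requires the zinc finger proteins ZFP57 and ZFP445, with TRIM28 and DPPA3. In mESCs the marks are known to be lost or gained in culture, and sustained MEK inhibition in particular is known to lower DNA methylation. Many paternally expressed genes promote fetal growth, whereas several maternally expressed ones restrain it.

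The hexamer that ZFP57 recognizes lay in a promoter window of 11 of the imprinted genes. The windows of 3 of these are shown, chosen after their values were seen: Mest and Nap1l5 were far below the other lines of embryo 3 in line 3.5, and Grb10 was low in 5 lines. Mest, Grb10 and Snrpn each had a match and a line apart from its sisters, by the limit given further on. Magel2, Peg12, Tssc4, Cd81 and Zrsr1 also had such a line but 0 matches in their windows. Nap1l5 had no line beyond that limit, and its low level in line 3.5 rests on 5 counts. Each window runs from 250 bases before to 50 after a RefSeq transcript start and is given 5′ to 3′ on the strand of the gene, with capitals marking the hexamer TGCCGC or its reverse complement GCGGCA. The windows come from RefSeq on GRCm38.p6 and were placed by exact match on GRCm39, at chr6:30737802-30738101 on the plus strand (Mest, within the annotated gene), chr6:58884062-58884361 on the minus strand (Nap1l5, ending next to the annotated start of the gene) and chr11:11987371-11987670 on the minus strand (Grb10, within the annotated gene).
Mest: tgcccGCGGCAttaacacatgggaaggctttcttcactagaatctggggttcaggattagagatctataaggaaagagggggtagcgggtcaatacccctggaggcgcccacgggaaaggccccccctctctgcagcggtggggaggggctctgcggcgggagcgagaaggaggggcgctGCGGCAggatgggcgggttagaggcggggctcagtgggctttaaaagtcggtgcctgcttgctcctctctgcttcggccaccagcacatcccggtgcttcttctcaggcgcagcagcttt
Nap1l5: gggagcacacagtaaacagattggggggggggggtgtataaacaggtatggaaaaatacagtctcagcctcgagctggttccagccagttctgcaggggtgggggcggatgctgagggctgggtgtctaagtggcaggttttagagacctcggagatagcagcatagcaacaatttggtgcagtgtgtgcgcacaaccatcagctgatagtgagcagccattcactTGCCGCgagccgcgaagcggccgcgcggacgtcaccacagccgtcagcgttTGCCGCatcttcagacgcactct
Grb10: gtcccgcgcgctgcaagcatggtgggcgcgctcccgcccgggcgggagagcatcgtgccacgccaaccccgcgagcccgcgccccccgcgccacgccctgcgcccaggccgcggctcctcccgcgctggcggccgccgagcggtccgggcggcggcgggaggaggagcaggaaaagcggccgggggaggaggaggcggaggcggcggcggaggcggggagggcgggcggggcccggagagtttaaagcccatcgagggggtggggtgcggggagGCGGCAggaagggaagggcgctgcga
The Mest and Nap1l5 windows held 2 matches each and the Grb10 window held 1. A window was found for 34 of the 43 genes. The hexamer, searched on both strands, lay in 12 of their 51 windows (23.5%), and in 18.1% of the 15793 windows of all tested genes, so its share among the imprinted genes was close to that of other promoters. A match is a description of these letters and not a binding site.

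The libraries held 33846569 to 48740941 counts, and 0 of 171 library pairs were identical. All 12 mESC markers were present in every embryo, with sums of 3248 to 6299 CPM. The sum of 4 Y-linked genes was 0.540 to 3.44 CPM in embryo 3, 0.487 to 1.06 CPM in embryo 2 and 182, 151, 161, 4.78 and 171 CPM in lines 1.1 to 1.5 of embryo 1, so line 1.4 did not match the other lines of its embryo. Its label as a line of embryo 1 was kept, and its comparisons with sister lines rest on that label. The study reports that its lines clustered by parental embryo in a principal component analysis, and it names no exception there. Whether the Y chromosome was lost or lines were mixed up was not tested here. A difference of embryo 1 from the others cannot be told apart from one of sex. Lines 2.2, 3.1, 3.2, 3.6 and 3.7 had a shift of a whole chromosome in expression (2.2 by 0.44 and 3.1 by 0.36 on the log2 scale for chromosome 8, 3.2 by 0.35 for chromosome 13, 3.6 by -0.46 for chromosome 14 and 3.7 by -0.36 for chromosome 6). Lines 3.4 and 2.6 had shifts of 0.27 for chromosome 6 and 0.19 for chromosome 1. In line 1.2 the shift was 0.18 for chromosome 8, where 84.6% of 721 genes lay above the mean of its sister lines. Lines 3.4, 2.6 and 1.2 were kept where those 5 lines were left out together, which left only lines 3.3, 3.4 and 3.5 of embryo 3.

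The imprinted genes spanned from trace amounts to some of the more abundant transcripts. Per kilobase of exon, the highest mean levels were those of Peg10, a retrotransposon-derived gene needed in the placenta (122 CPM per kb), and H19, the long non-coding RNA of the H19-Igf2 domain (85.6 CPM per kb). The tetraspanin gene Cd81 followed with 39.3 CPM per kb and the amino acid transporter gene Slc38a4 with 33.0 CPM per kb. Among the 41 genes the lowest was Airn, the long non-coding RNA antisense to Igf2r, at 0.0868 CPM per kb. No length was at hand for Zrsr1, whose identifier was not in the annotation.

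**Figure D1:**
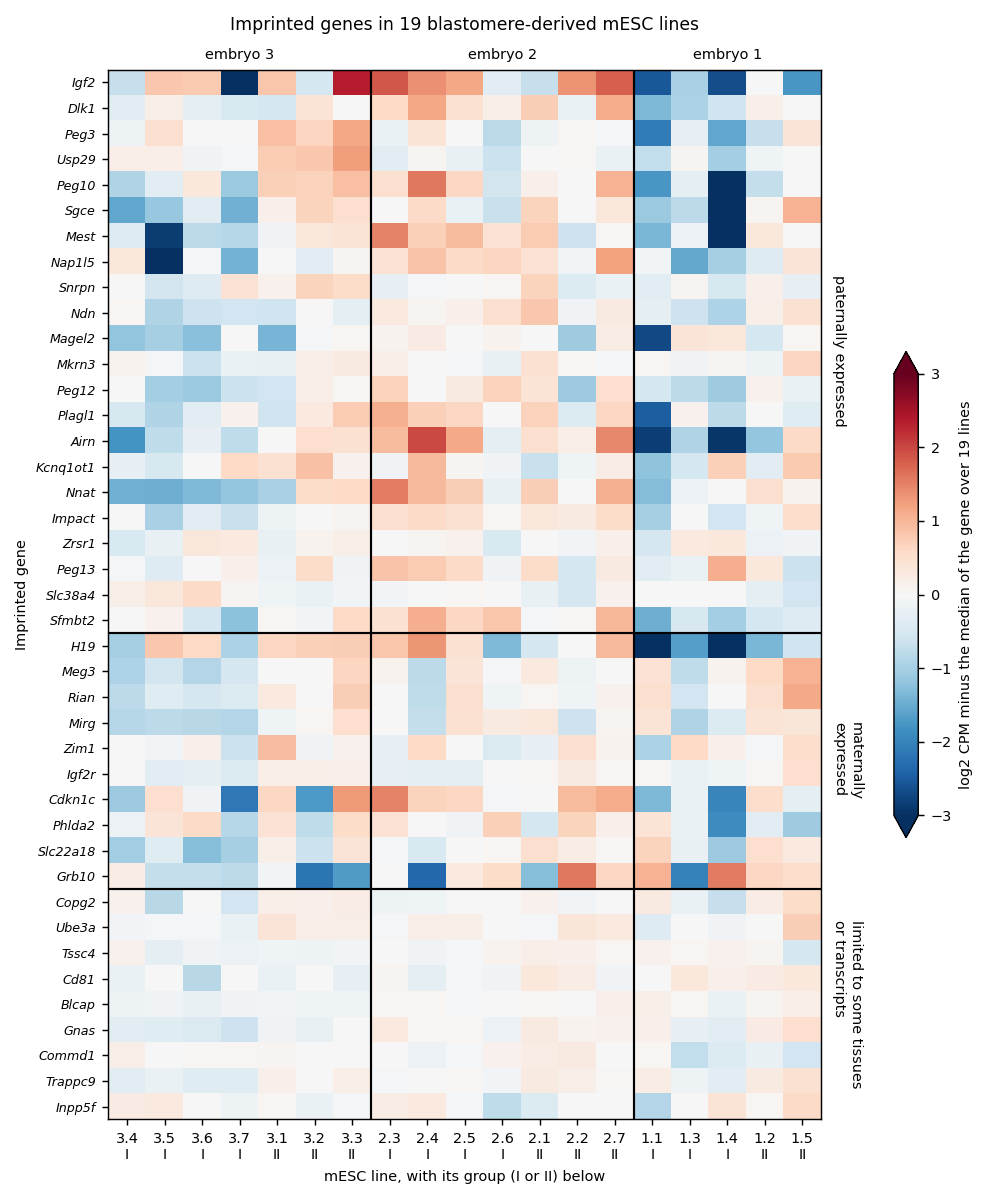
Level of each imprinted gene in each line, as log2 CPM minus the median of the gene over all lines. Differences between embryos therefore remain in the values. Genes are on the vertical axis, grouped as paternally expressed, maternally expressed and of limited imprinting. Lines are on the horizontal axis, with embryo 3 at the left, then 2 and 1. Line 1.4 is far below its sister lines for Peg10, Sgce and Mest, line 3.5 for Mest and Nap1l5, and the low Grb10 lines are 1.3, 2.1, 2.4, 3.2 and 3.3.

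Of the 41 imprinted genes, 3 were called for embryo 3 against embryo 1, 3 for embryo 3 against embryo 2 and 5 for embryo 2 against embryo 1. Genes count as called here if the quasi-likelihood test of edgeR gave an adjusted p (Benjamini-Hochberg, over all tested genes) under 0.05 and the fold change was over 1.5. These are 7.32%, 7.32% and 12.2% of the 41, and the background among all tested genes was 5.45%, 5.63% and 4.35% called in the same comparisons. Called in the test for any difference among the 3 embryos were 7 of the 41 (17.1%), against 9.49% of all genes (H19, Dlk1, Usp29, Airn, Nnat, Impact and Sfmbt2). Without line 1.4, whose Y-linked sum stood apart, 1 imprinted gene was called for embryo 3 against embryo 1, 4 for embryo 3 against embryo 2 and 2 for embryo 2 against embryo 1, while 4.36%, 5.53% and 3.09% of all 19182 genes tested without that line were called. The 13 genes called in at least 1 comparison of embryos or groups are given one by one, and 28 were called in none. All members called against embryo 1 were higher in embryos 2 and 3, and all those called between embryos 3 and 2 were lower in embryo 3.

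H19 was higher in embryos 3 and 2 than in embryo 1. It lies on chromosome 7 (142129262 to 142133957 in GRCm39) and is known to be read from the maternal allele. Its level was 114 CPM in the lowest line of embryo 3, 349 in the median line and 397 in the highest, and 90.8, 313 and 571 in the lowest, median and highest lines of embryo 2. In embryo 1 it was 22.5, 87.4, 72.0, 17.1 and 151 CPM in lines 1.1 to 1.5. The ranges met, since lines 3.4 (114), 3.7 (118) and 2.6 (90.8) lay below line 1.5. The log2 fold change was 2.08 ± 0.52 for embryo 3 against embryo 1 (SE, edgeR adjusted p = 0.0177) and 2.17 ± 0.53 for embryo 2 against embryo 1 (adjusted p = 0.0161). The first call was kept with each line left out in turn (adjusted p 0.00684 to 0.0402) but not without the 5 lines with a shifted chromosome (0.0969), and the second was kept in all of these (0.00495 to 0.0431 with each line left out).

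Igf2, the fetal growth factor gene that shares the domain and is read from the paternal allele, was also higher in embryo 2 than in embryo 1. Its lowest, median and highest lines had 19.6, 80.7 and 116 CPM in embryo 2, and lines 1.1 to 1.5 of embryo 1 had 5.43, 31.9, 16.3, 5.04 and 9.54 CPM. Lines 2.1 and 2.6 lay below line 1.2, and the other 5 lines of embryo 2 lay above every line of embryo 1. The log2 fold change was 2.40 ± 0.70 (SE, edgeR adjusted p = 0.0474), and the call ended without any of lines 1.1, 1.3, 1.4, 1.5, 2.2, 2.3, 2.4, 2.5, 2.7, 3.1, 3.5 and 3.6 (adjusted p 0.0191 to 0.123 over all lines left out), as it did with a replicate block for line numbers (0.0675) and without lines 1.5 and 2.4 together (0.113). Embryo 3 had 2.93, 55.1 and 164 CPM in its lowest, median and highest lines, the widest range of the 3 embryos, with line 3.7 at the bottom and line 3.3 at the top. The fold change of embryo 3 against embryo 1, 1.97 ± 0.69, was of like size but not called (adjusted p = 0.0801).

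Sfmbt2, which encodes a Polycomb group protein and is read from the paternal allele in the mouse, gave the smallest p among the imprinted genes in the test of embryos. Its lowest, median and highest lines had 58.4, 91.6 and 128 CPM in embryo 2, and lines 1.1 to 1.5 had 21.5, 41.9, 42.7, 29.6 and 45.8 CPM. Every line of embryo 2 lay above every line of embryo 1, and embryo 3 spanned both (25.5 to 90.4 CPM, median 59.9). Embryo 2 exceeded embryo 1 by a log2 fold change of 1.35 ± 0.27 (SE, edgeR adjusted p = 0.00314), and the call was kept with each line left out (0.000856 to 0.0132).

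Dlk1, a transmembrane ligand related to the Notch ligands and read from the paternal allele, was low in all lines. Embryo 2 had 2.44, 4.26 and 6.29 CPM in its lowest, median and highest lines, and lines 1.1 to 1.5 of embryo 1 had 1.09, 3.09, 1.42, 1.84 and 2.78 CPM. Line 2.2 alone lay within the range of embryo 1, below lines 1.2 and 1.5. Its log2 fold change was 1.09 ± 0.28 (SE, edgeR adjusted p = 0.0222), and the call ended without line 1.1, 1.3, 1.4 or 2.4 (adjusted p 0.00968 to 0.0612 over all lines left out).

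Airn, whose transcription silences Igf2r on the paternal allele in several tissues, was close to the limit of the filter. Embryo 2 had 0.613, 1.48 and 3.03 CPM in its lowest, median and highest lines, against 0.0862, 0.324, 0.388, 0.0788 and 1.12 CPM in lines 1.1 to 1.5. Lines 2.1, 2.2 and 2.6 lay below line 1.5 and above the other lines of embryo 1. The levels of lines 1.1 and 1.4 rest on 3 counts each. For embryo 2 against embryo 1 the log2 fold change was 1.92 ± 0.56 (SE, edgeR adjusted p = 0.0457), and the call ended without any of lines 1.1, 1.2, 1.3, 1.4, 2.3, 2.4, 2.5, 2.7, 3.1, 3.5, 3.6 and 3.7 (adjusted p 0.00383 to 0.112 over all lines left out) and with no filter on low counts (0.0525), with a replicate block for line numbers (0.0816) and without the 5 lines with a shifted chromosome (0.0736).

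Peg3 and Usp29, neighbours on chromosome 7 that are read in opposite directions from the paternal allele, were higher in embryo 3 than in embryo 1. Peg3, a zinc finger gene, had 189.9, 295 and 471 CPM in the lowest, median and highest lines of embryo 3, and 49.4, 131, 178, 71.3 and 277 CPM in lines 1.1 to 1.5. Usp29, a ubiquitin-specific peptidase gene, had 4.49, 5.59 and 11.6 CPM in embryo 3 and 2.90, 4.45, 5.15, 2.39 and 4.92 CPM in lines 1.1 to 1.5. For both genes the ranges overlapped, with lines 3.6 and 3.7 below line 1.5, while lines 3.1, 3.2, 3.3 and 3.5 lay above every line of embryo 1. The log2 fold changes were 1.08 ± 0.33 for Peg3 (SE, edgeR adjusted p = 0.0472) and 0.81 ± 0.24 for Usp29 (adjusted p = 0.0445). These calls were close to the threshold. Leaving out a line gave an adjusted p of 0.00692 to 0.109 for Peg3, whose call was kept without line 1.3, 1.5, 2.6, 3.4 or 3.7 and ended without any other. For Usp29 it gave 0.0346 to 0.109, and the call ended without any of lines 1.1, 1.2, 1.4, 1.5, 2.3, 2.4, 2.5, 2.7, 3.1, 3.2, 3.3 and 3.5. Without the 5 lines with a shifted chromosome neither was called (0.154 for Peg3 and 0.1005 for Usp29), and Usp29 was not called with no filter on low counts (0.0666).

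Nnat, Ndn and Impact, which are all read from the paternal allele, were lower in embryo 3 than in embryo 2. Nnat encodes neuronatin, a small membrane protein, and had 8.94, 11 and 37.1 CPM in the lowest, median and highest lines of embryo 3, against 21.1, 41.1 and 71.7 CPM in embryo 2. Within embryo 3 it fell into distinct levels, with 36.0 and 37.1 CPM in lines 3.2 and 3.3 and at most 12.6 CPM in the other 5 lines. Ndn encodes necdin, a MAGE family protein, and had 10.3, 12.8 and 20.1 CPM in embryo 3 and 17.9, 23.4 and 33.5 CPM in embryo 2. Impact, a regulator of the kinase GCN2, had 62.3, 110.3 and 129.9 CPM in embryo 3 and 127.6, 169 and 182 CPM in embryo 2. The ranges met by 1 line a side for Impact (3.3 above 2.6), and lines 3.2 and 3.4 lay above line 2.2 for Ndn. The log2 fold changes were -1.27 ± 0.37 for Nnat, -0.69 ± 0.20 for Ndn and -0.65 ± 0.19 for Impact (SE, edgeR adjusted p = 0.0354, 0.0342 and 0.0342).

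These 3 calls depended on single lines. Nnat was no longer called without any of lines 2.1, 2.3, 2.4, 2.5, 2.7, 3.1, 3.4, 3.5, 3.6 and 3.7 (adjusted p 0.00901 to 0.0834 over all lines left out). Ndn was no longer called without any of lines 2.1, 2.3, 2.6, 2.7, 3.1, 3.5, 3.6 and 3.7 (0.0184 to 0.0844), and Impact without any of lines 2.1, 2.3, 2.4, 2.5, 2.7, 3.5, 3.6 and 3.7 (0.0125 to 0.0828). Without the 5 lines with a shifted chromosome none of the 3 was called (adjusted p 0.205, 0.278 and 0.306). That fit called 0 of the 41 genes and 1.89% of all genes. It kept only lines 3.3, 3.4 and 3.5 of embryo 3, so the loss of lines and the shifts cannot be told apart. Nnat was also lost without lines 1.5 and 2.4 (0.0589), whose library names carry higher numbers than those of all other lines. With the fibroblast score described further on as a covariate, Ndn (adjusted p = 0.0570) and Impact (0.0621) were not called, and a replicate block for line numbers ended both calls too (0.0956 and 0.0773).

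Some markers of other cell types also differed between embryos 3 and 2. Of 8 neural genes, 3 were called lower in embryo 3, the transcription factor genes Pax6 (-1.21) and Sox1 (-1.06) and the microtubule gene Map2 (-1.03), and the sum of the 8 was 123.9 to 154.6 CPM in embryo 3 and 155.7 to 245.2 CPM in embryo 2, without overlap. Of 11 primitive endoderm genes, Gata6 (1.39) and Dab2 (1.03) were called higher in embryo 3, with sums of 22.9 to 50.2 CPM in embryo 3 and 14.6 to 23.2 CPM in embryo 2, where Ttr was at 0. The trophectoderm and mesoderm lists did not move as a whole. Of the first, Eomes alone was called higher (0.94), and 5 of 9 tested genes had a positive fold change. Of the second, Meox1 alone was called higher (1.36), at 0.0617 to 0.739 CPM over all lines, and 2 of 5 tested genes had a positive fold change. The part of these markers in the differences of Nnat, Ndn and Impact was not tested.

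**Figure D2:**
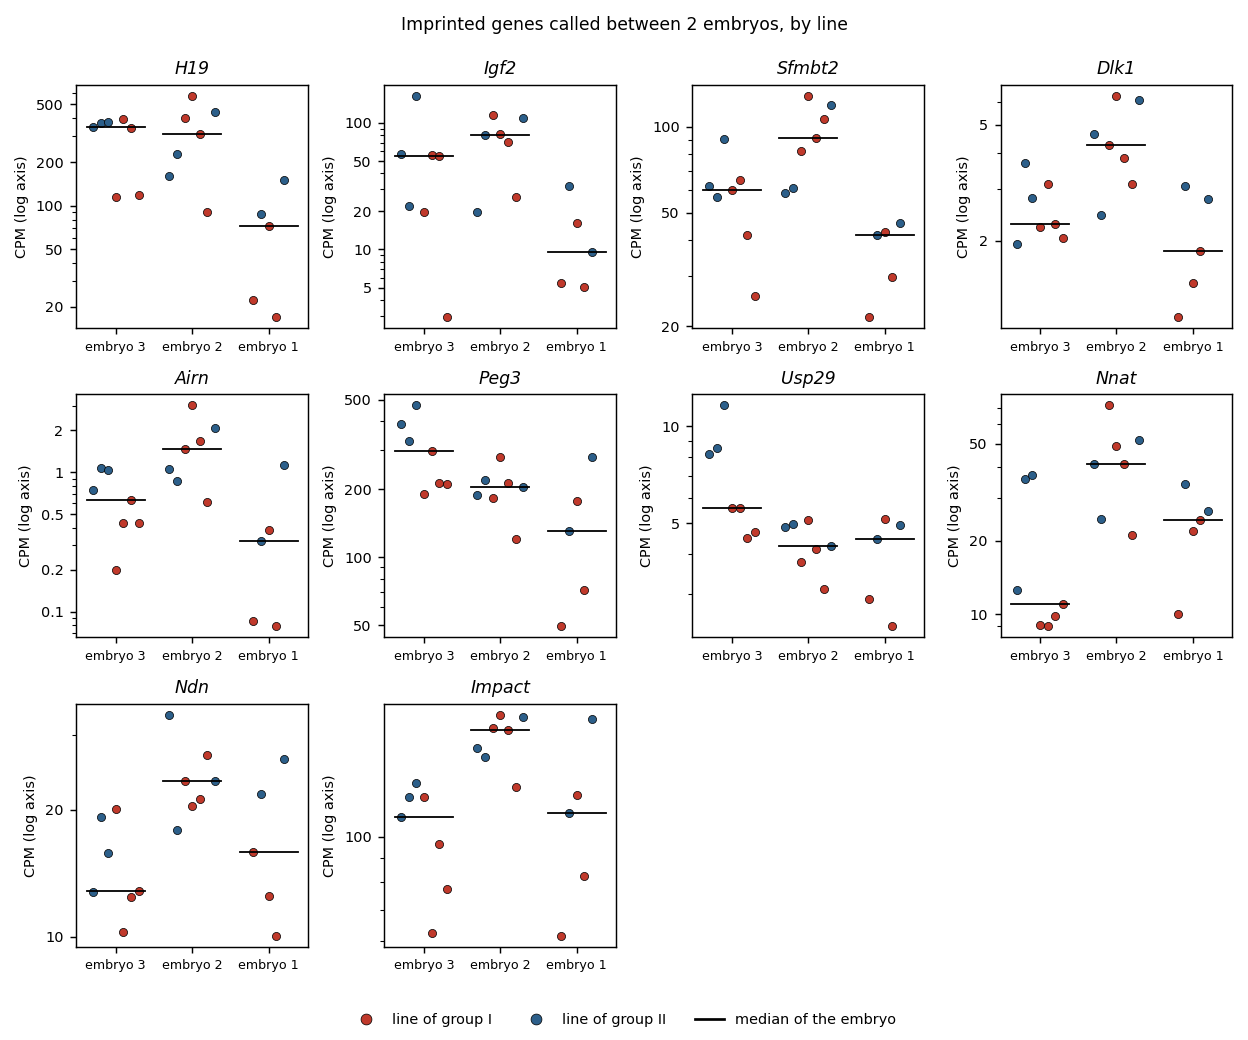
Level of the members called between embryos (CPM on a log scale, vertical axis) in every line of embryos 3, 2 and 1 (left to right), with 1 point per line, red for group I and blue for group II, and a bar at the median of the embryo. For Sfmbt2 every line of embryo 2 (58.4 to 128) lies above every line of embryo 1 (21.5 to 45.8), whereas the embryos overlap for H19.

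By allele, the paternally expressed genes leaned to embryo 2. Of the 22, 20 had a positive log2 fold change in embryo 2 against embryo 1 (median 0.52), 6 in embryo 3 against embryo 2 (median -0.49) and 16 in embryo 3 against embryo 1 (median 0.16). Over all tested genes the medians were -0.01, 0.00 and -0.01. These comparisons share their lines and are not independent of each other. The 10 maternally expressed genes had a positive fold change in 3, 1 and 3 cases, and the 9 genes of limited imprinting in 4, 1 and 1. Taking all 41 together, 33 had a negative fold change in embryo 3 against embryo 2 (median -0.22), and 9600 of 18878 tested genes had a positive one. Without line 1.4 the paternally expressed genes were higher in embryo 2 than in embryo 1 in the same number of cases (20), and with the fibroblast score described further on as a covariate 26 of the 41 were lower in embryo 3 than in embryo 2.

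Among the 28 genes called in no comparison, the log2 fold changes ran from -1.38 (Grb10) to 1.07 (Peg10) for embryo 3 against embryo 1, from -1.0 (Mest) to 0.21 (Slc38a4) for embryo 3 against embryo 2, and from -0.42 (Rian) to 1.47 (Peg10) for embryo 2 against embryo 1. Commd1, the gene around Zrsr1, was past the adjusted p but under the fold threshold, at 0.40 ± 0.11 for embryo 3 against embryo 1 (SE, edgeR adjusted p = 0.0269) and 0.41 ± 0.11 for embryo 2 against embryo 1 (adjusted p = 0.0285). Its levels were 34.5 to 38.9 CPM in embryo 3, 30.7 to 41.7 CPM in embryo 2 and 36.0, 29.5, 20.7, 25.9 and 23.2 CPM in lines 1.1 to 1.5, so line 1.1 lay among the lines of the other embryos. Cd81 (-0.40 ± 0.12 for embryo 3 against embryo 1, adjusted p = 0.0473) and Gnas, the gene of a stimulatory G protein subunit (-0.39 ± 0.12 for embryo 3 against embryo 2, adjusted p = 0.0418), were past it in the other direction, lower in embryo 3. Cd81 had 82.7 to 148 CPM in embryo 3 and 147.9 to 185 CPM in embryo 1, and Gnas 172.9 to 265 CPM in embryo 3 and 234 to 325 CPM in embryo 2. Plagl1, a zinc finger transcription factor gene read from the paternal allele, had 6.33 to 17.6 CPM in embryo 2 and 1.49, 8.40, 9.16, 4.86 and 6.49 CPM in lines 1.1 to 1.5, and its fold change of 1.00 ± 0.35 was not called (adjusted p = 0.104).

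Markers of trophectoderm, the lineage that forms the placenta, moved with the embryos as well. The sum of 11 such markers was 49.0 to 263 CPM in embryo 3, 27.7 to 293 CPM in embryo 2 and 27.5 to 56.3 CPM in embryo 1. Between embryos 3 and 1, 5 of the 11 were called higher (Cdx2, Gata3, Hand1, Krt8 and Krt18), and between embryos 2 and 1 Krt8 and Krt18 were called higher and Eomes lower. Prl3d1, a hormone gene of trophoblast giant cells, was at 0 in every line. The primitive endoderm marker Dab2 was called higher in embryo 3 than in embryo 1 (1.32). Among the mESC markers Zfp42 (-0.64) was called lower and Fbxo15 (0.78) higher in embryo 3 than in embryo 1, and Zfp42 (-0.87), Tdgf1 (-0.70) and Dppa5a (-0.66) lower in embryo 2 than in embryo 1, where the fibroblast marker Acta2 (2.07) was called higher in embryo 2. The part of these markers in the differences of H19, Igf2, Sfmbt2, Dlk1, Airn, Peg3 and Usp29 from embryo 1 was not tested.

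Of 19 genes that write, protect or remove methylation or act at imprinted loci, among them Zfp57, Trim28, Dnmt1, Uhrf1 and the demethylases Tet1 and Tet2, only Dppa3 was called between embryos. DPPA3 shields the maternal genome from demethylation after fertilization. It had 69.1, 79.1 and 83.7 CPM in the lowest, median and highest lines of embryo 2, against 42.7, 51.8, 37.3, 37.4 and 45.6 CPM in lines 1.1 to 1.5, and these did not overlap. Embryo 3 had 23.8, 38.7 and 82.3 CPM, with line 3.4 at the level of embryo 2. The log2 fold change of embryo 3 against embryo 2 was -0.76 ± 0.18 (SE, edgeR adjusted p = 0.0120), and that of embryo 2 against embryo 1 was 0.85 ± 0.21 (adjusted p = 0.0153).

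Between the groups of the study, which were drawn on these same libraries, the imprinted genes leaned to lower levels in group I. With embryo as a term in the fit, 36 of the 41 had a negative log2 fold change (median -0.34), against 9265 of 18878 tested genes with a positive one (median -0.01). Called were 4 of the 41, Sgce, Meg3, Peg3 and Slc22a18, all lower in group I, against 12.1% of all genes (5.48% higher and 6.64% lower). By allele, 19 of the 22 paternally expressed, 9 of the 10 maternally expressed and 8 of the 9 genes of limited imprinting had a negative fold change. Without line 1.4, 2 of the 41 were called, against 11.7% of all genes in that fit, and 37 had a negative fold change. The adjusted p is no independent evidence for groups that were defined from the same expression values.

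Sgce, which encodes epsilon-sarcoglycan, a membrane protein of the dystrophin-associated complex, had 1.365, 6.39 and 16.6 CPM in the lowest, median and highest lines of group I and 11.1, 14.8 and 23.1 CPM in those of group II. Lines 2.3 and 2.4 alone reached the range of group II. The log2 fold change was -1.22 ± 0.28 (SE, edgeR adjusted p = 0.00407), and it was kept with each line left out (0.00196 to 0.0116). Within embryos it was -1.47 ± 0.40 in embryo 3, -0.36 ± 0.39 in embryo 2 and -2.02 ± 0.48 in embryo 1. Sgce lies on chromosome 6. The median shift of its other genes against sister lines ran from -0.36 (line 3.7) to 0.27 (line 3.4) in group I. In group II it ran from -0.02 (line 2.2) to 0.16 (line 1.5). The part of these shifts in the difference of Sgce was not tested.

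Meg3, the long non-coding RNA at the start of the maternal transcript of the Dlk1-Dio3 domain (chromosome 12, 109506877 to 109538165), had 128, 173 and 329.6 CPM in the lowest, median and highest lines of group I, against 218, 272 and 504 CPM in those of group II. Lines 1.1, 1.4, 2.3, 2.5 and 2.6 of group I lay within the range of group II. The log2 fold change was -0.61 ± 0.17 (SE, edgeR adjusted p = 0.0152), and without line 1.3, 1.5, 2.4, 3.3, 3.4 or 3.6 the fold fell under 1.5 while the adjusted p stayed between 0.00652 and 0.0421 over all lines left out. Rian, which lies downstream on the same strand and hosts small nucleolar RNAs, had a fold change of -0.56 ± 0.17 (adjusted p = 0.0191), just under the fold threshold. The call of Meg3 was lost under 5 of 8 other settings (adjusted p 0.0538 with no embryo term to 0.518 with the fibroblast score described further on). Within embryos Meg3 differed by -0.95 ± 0.26 in embryo 3, by -0.08 ± 0.26 in embryo 2 and by -0.83 ± 0.31 in embryo 1.

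Peg3 had 49.4, 189.9 and 295 CPM in the lowest, median and highest lines of group I and 131, 249 and 471 CPM in those of group II, and its log2 fold change was -0.59 ± 0.22 (SE, edgeR adjusted p = 0.0494). Slc22a18, a solute carrier gene read from the maternal allele, had 0.569, 1.10 and 2.27 CPM in the lowest, median and highest lines of group I and 0.9002, 1.70 and 2.01 CPM in those of group II, and its fold change was -0.59 ± 0.21 (adjusted p = 0.0433). Both calls were at the edge. Peg3 was no longer called without any of lines 1.1, 1.4, 1.5, 2.2, 2.3, 2.6 and 3.1 to 3.7 (adjusted p 0.0217 to 0.153), nor Slc22a18 without any of lines 1.2, 1.3, 1.4, 1.5, 2.1, 2.2, 2.3, 2.4, 2.5, 3.1, 3.3, 3.4, 3.6 and 3.7 (0.00959 to 0.0951). Of 8 other settings, 6 ended the call of Peg3 (adjusted p 0.0527 to 0.543) and all 8 that of Slc22a18, whose fold fell under 1.5 with DESeq2 (adjusted p = 0.0276) and RLE factors (0.0479) and whose adjusted p was 0.0662 to 0.331 in the other 6.

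Igf2r, whose product clears IGF2 from the cell surface and which is read from the maternal allele, had the smallest p of the 41 genes between the groups without reaching the fold threshold. Its lines had 108 to 150.7 CPM in group I (median 123) and 151.1 to 209 CPM in group II (median 165), and the groups did not overlap. This gave a log2 fold change of -0.39 ± 0.07 (SE, edgeR adjusted p = 0.000825), and within embryos it was -0.44 ± 0.12, -0.34 ± 0.12 and -0.39 ± 0.14 in embryos 3, 2 and 1. Besides Rian, the genes Usp29, Copg2, Ube3a, Gnas and Trappc9 were also past the adjusted p but under the fold threshold, with fold changes of -0.53 to -0.29. Slc38a4 was the 1 gene past it in the other direction, at 0.33 ± 0.08 (adjusted p = 0.00521), with 194 to 309 CPM in group I and 138 to 224 CPM in group II.

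The direction was shared by fewer genes in embryo 2. A negative difference of group I against group II was found for 36 of the 41 genes in embryo 3 (4 and 3 lines), for 22 in embryo 2 (4 and 3 lines) and for 33 in embryo 1 (3 and 2 lines), with medians of -0.50, -0.05 and -0.50. Whether the group difference differed between embryos was tested for each gene. In simulated data this test recovered 46 of 100 changes of 2-fold and 76 of 100 of 3-fold. The changed genes were drawn from tested genes at large, and recovery for the imprinted genes alone was not measured. Their median SD among sister lines, given further on, was 0.50 against 0.19 for other genes of at least 10 CPM. On the study's lines edgeR called 0 of the 41 and 0 of all 18878 genes (0% background). At an unadjusted p under 0.05 there were 5 of the 41 (Mirg, Sgce, Mest, Airn and Nnat) and 1725 of all genes, and DESeq2 called 0 of the 41 and 247 of all genes.

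Fibroblast markers moved with the groups. The sum of 18 such genes was 469.8 to 971 CPM in group I and 290.5 to 684 CPM in group II, none was at 0 in every line, and 9 of the 18 were called higher in group I and 1 lower (Acta2). When a score from 5 of them (Dcn, Lum, Col3a1, Col1a2 and Col1a1) was added to the fit, 0 of the 41 imprinted genes and 0 of all 18878 genes were called between the groups (7 and 2035 at an unadjusted p under 0.05). The fold change stayed negative for 32 of the 41, with a median of -0.26. With the score Sgce had an adjusted p of 0.404. The mESC markers Klf4, Tfcp2l1 and Tbx3 were called higher in group I, 3 of 12 with sums of 4044 to 6299 CPM in group I and 3248 to 4816 CPM in group II. Of the 19 genes of methylation and imprinting given before, 0 were called between the groups (9 at an unadjusted p under 0.05). Of 8 neural genes, 4 were called lower in group I, among them Sox1 (-0.68), Nes (-1.07) and Dcx (-1.76), with sums of 105.9 to 207.7 CPM in group I and 144.6 to 245.2 CPM in group II. Of 11 primitive endoderm genes, 3 were called higher in group I, Gata6 (0.89), Dab2 (0.61) and Pdgfra (0.61), with sums of 15.9 to 50.2 CPM in group I and 14.6 to 25.6 CPM in group II, where Ttr was at 0. The part of these markers in the lower levels of Sgce, Meg3, Peg3 and Slc22a18 was not tested beyond the fibroblast covariate.

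**Figure D3:**
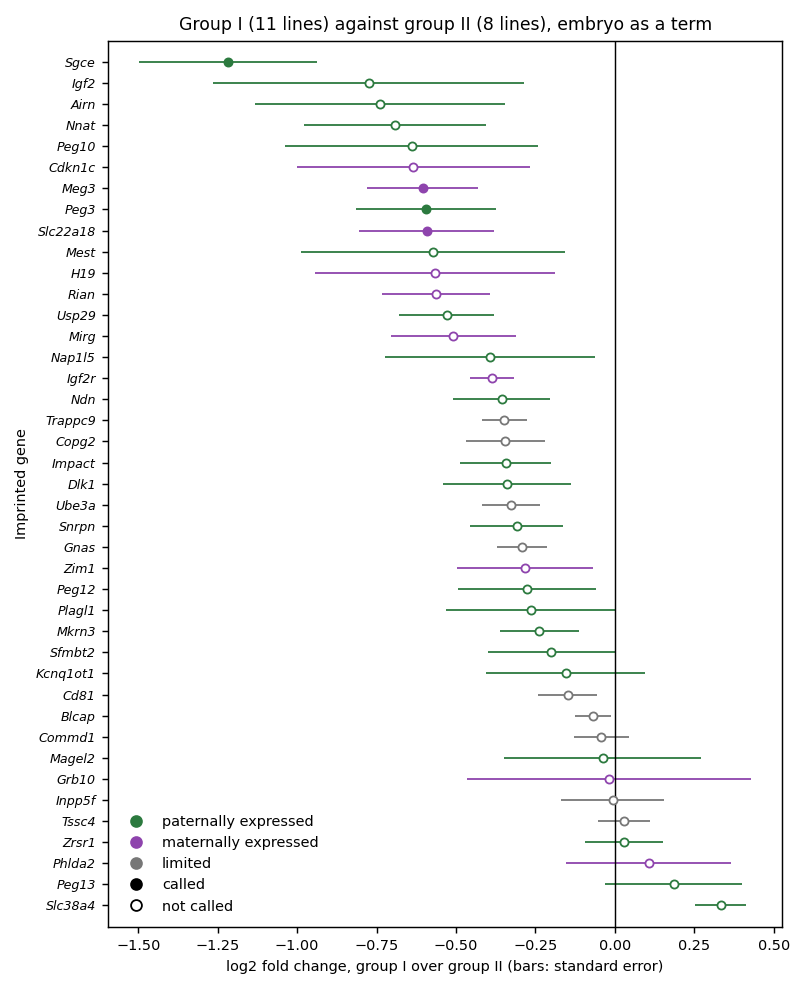
Log2 fold change of group I against group II for each of the 41 imprinted genes, with its standard error, as fitted over the 3 embryos. Of the 41 values 36 lie below 0, and the 4 called genes are Sgce (-1.22), Meg3 (-0.61), Peg3 (-0.59) and Slc22a18 (-0.59).

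Sister lines of 1 embryo differed in the imprinted genes by more than they did in most genes. After the mean of each embryo was removed, the SD of log2 CPM among lines had a median of 0.50 over the 30 imprinted genes that averaged 10 CPM or more, against 0.19 over the 9234 genes at that level. Of the 30, 18 (60%) were above the 90th percentile of those genes, against a background of 10%. The largest SDs were those of Igf2 (1.40), Mest (1.20), Peg10 (1.19), Grb10 (1.18), H19 (1.01), Cdkn1c (0.99) and Sgce (0.99). Not all members varied: Blcap (0.09), Tssc4 (0.17) and Commd1 (0.19), all of limited imprinting, had SDs at or below the median of other genes.

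**Figure D4:**
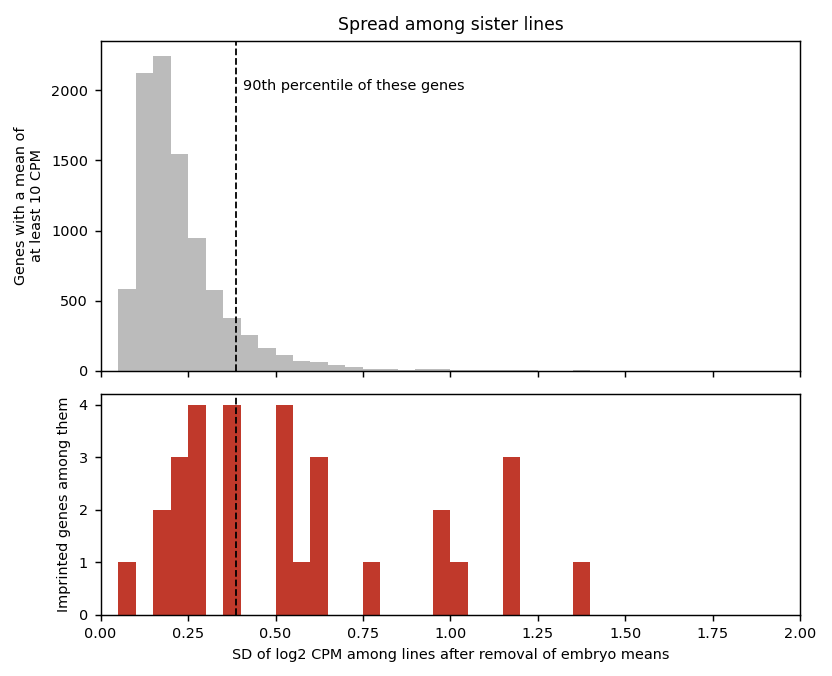
Spread among sister lines (SD of log2 CPM after removal of embryo means, horizontal axis) of the genes that averaged 10 CPM or more, with the 30 imprinted genes marked. The imprinted genes have a median of 0.50 and the 9234 genes one of 0.19, with Igf2 at 1.40 and Blcap at 0.09.

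Some of this spread came from single lines that fell far below their sisters. In line 1.4, Peg10 had 24.7 CPM against 213 to 709.8 CPM in the other lines of embryo 1, Sgce had 1.365 against 5.17 to 23.1 CPM, and Mest had 9.48 against 59.8 to 194 CPM. All 3 genes are on chromosome 6 and read from the paternal allele, and the median of the other chromosome 6 genes in line 1.4 was lower by 0.17 on the log2 scale. This is the line whose Y-linked sum does not match its embryo. In line 3.5, Mest had 21.4 CPM against 86.3 to 207 CPM in the other lines of embryo 3, and Nap1l5, a nucleosome assembly family gene on the same chromosome, had 0.108 CPM, which rests on 5 counts, against 0.565 to 1.93 CPM. The other chromosome 6 genes of line 3.5 were shifted by -0.19. Peg10 and Sgce were not the lowest of embryo 3 in that line, at 560.2 and 5.05 CPM. Of the low values named here, that of Mest in line 3.5 alone passed Dixon's limit for lines that stand apart, which is given further on.

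Grb10, an adaptor that dampens insulin and growth factor signalling, was low in lines of all 3 embryos. It had 24.7 and 34.9 CPM in lines 3.2 and 3.3, 46.7 and 22.2 CPM in lines 2.1 and 2.4, and 27.9 CPM in line 1.3. The other 14 lines had 66.3 to 342 CPM. Both low lines of embryo 3 and line 2.1 belong to group II, and lines 1.3 and 2.4 to group I, so the low level did not follow the groups. Its fold change of embryo 3 against embryo 1, -1.38 ± 0.54, was not called (edgeR adjusted p = 0.115).

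Line 2.4 stood at the other end. It had the highest level of its embryo in 9 of the 22 paternally expressed genes and the lowest in 5 of the 10 maternally expressed ones, and was also highest in 2 maternally expressed genes, H19 (571 CPM) and Zim1 (2.12 CPM). Peg10 reached 2136 CPM there, against 481 to 1468 CPM in the other lines of embryo 2, and Kcnq1ot1, the non-coding RNA that silences its cluster on the paternal allele, reached 97.9 against 31.3 to 57.8 CPM. Meg3 and Grb10 were at their lowest in embryo 2 there, at 142.6 and 22.2 CPM. Line 2.4 also had the highest trophectoderm marker sum (293 CPM). In embryo 3, line 3.3 was highest in 11 of the 22 paternally expressed and 5 of the 10 maternally expressed genes, and its trophectoderm sum was the highest of the embryo (263 CPM). In embryo 1, line 1.5 was highest in 10 of the 22. Lines 1.1, 1.4, 2.6 and 3.5 were each lowest of their embryo in 9 of the 22, and line 2.2 in 10.

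A line stood apart from its sisters, by a gap to the nearest line beyond Dixon's limit on the log2 scale, in 8 of 123 combinations of gene and embryo (6.50%), against 7.18% of combinations of all tested genes. The 8 were Mest in line 3.5, Snrpn in line 2.1, Magel2 and Peg12 in line 2.2, Tssc4 in line 1.5, Cd81 in line 3.6, Grb10 in line 1.3 and Zrsr1 in line 2.6. Snrpn, the gene for small nuclear ribonucleoprotein N, which shares exons with Snurf on the same strand, was the 1 on the high side. The limit thus set apart no larger a share of the imprinted genes than of others.

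Pairs of genes at the same locus were then compared across the lines. Of 19 pairs of genes at a locus, 11 had a correlation of log2 CPM past an adjusted p of 0.05 after embryo means were removed (100000 permutations of lines within embryos, two-sided, adjusted over the 19 pairs), and 10 of the 11 were positive. The 11 pairs (57.9%) had an absolute r of at least 0.55, as did 115 of 600 pairs of imprinted genes on different chromosomes (19.2%), and the median r was 0.55 over the locus pairs and 0.25 over those 600. The 19 lines share their libraries, and 3 embryos supplied them. Pearson's r was 0.97 for Meg3 and Rian (Spearman's rho 0.95, adjusted p = 9.5e-05 for both) and 0.91 for Meg3 and Mirg, the host of microRNAs at the far end of the domain (rho 0.90). The unadjusted p of Meg3 and Rian, 1e-05, is the smallest that the permutations can give. Without the 2 lines farthest from the median of Meg3, r was 0.96 and 0.86. Dlk1, read from the other allele of this domain, did not follow Meg3 (r = 0.24, adjusted p = 0.424).

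Pairs that share a promoter region on the paternal allele also varied together. Peg3 and Usp29 had r = 0.84 (rho 0.92, adjusted p = 0.00019) and Peg10 and Sgce r = 0.88 (rho 0.84, adjusted p = 0.00019), and without the 2 most distant lines r was 0.91 and 0.78. H19 and Igf2, which are read from opposite alleles, had a positive r of 0.70 (rho 0.70, adjusted p = 0.00167), which was 0.67 without 2 lines, 0.77 within embryo 3 and 0.84 within embryo 2. Peg3 and Zim1, also read from opposite alleles, had r = 0.72 (rho 0.65, adjusted p = 0.00611), and 0.58 without 2 lines. Zim1 is a zinc finger gene. These 6 pairs, with those of Meg3 counted in, stayed past the threshold with each line left out in turn (adjusted p at most 0.0198).

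Other correlations rested on few lines, and the 5 further pairs past the threshold each lost it with some line left out. Mest and Copg2, a COPI coat gene on the opposite strand, had r = 0.75 (rho 0.57, adjusted p = 0.0164), but r = 0.36 without lines 1.4 and 3.5 and r = -0.09 within embryo 2, and it was lost without either of these lines (adjusted p up to 0.0755). Their exons overlap by 3850 bp, and strand use in the counting was not stated, so part of their counts may be shared. Snrpn with Ndn (r = 0.55, adjusted p = 0.0288) and Cdkn1c with Phlda2 (r = 0.61, adjusted p = 0.0288) dropped to r = 0.39 and 0.46 without 2 lines each, and the rho of the second pair, 0.46, had an unadjusted p of 0.0811. The call of Snrpn and Ndn was lost without line 1.4, 2.1, 2.2, 3.2 or 3.5 (adjusted p up to 0.108), and that of Cdkn1c and Phlda2 without line 1.3, 1.4, 2.1, 3.2, 3.3, 3.5 or 3.7 (up to 0.095). Cdkn1c encodes p57, an inhibitor of cyclin-dependent kinases, and Phlda2 a protein that limits placental growth. Snrpn and Peg12, an intronless gene of the FRAT family, had r = 0.58 (adjusted p = 0.0299) with and without 2 lines, but was past the threshold no longer without line 1.2, 1.4, 2.2, 3.2, 3.3, 3.5 or 3.6 (adjusted p up to 0.0757). The negative pair was Zrsr1 and Commd1, the gene that holds it in an intron, with r = -0.60 (rho -0.52, adjusted p = 0.0281) and r = -0.42 without 2 lines, and it was lost without line 1.1, 1.3 or 3.4 (adjusted p up to 0.103).

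The remaining 8 pairs were not past the threshold, and 3 of them join an antisense or intronic RNA to the gene around it or to its target. These were Igf2r with Airn (r = 0.27, adjusted p = 0.388), Kcnq1ot1 with Cdkn1c (r = -0.18, adjusted p = 0.516) and Peg13 with Trappc9 (r = -0.40, adjusted p = 0.194), whose exons overlap by 1293 bp on the same strand. Snrpn with Magel2 had r = 0.42 (adjusted p = 0.0823, and 0.0292 without line 1.4) and with Mkrn3 0.34, Phlda2 with Slc22a18 had 0.50 (adjusted p = 0.106, and 0.0366 without line 3.6), and Nnat with Blcap, the gene around it, had 0.02.

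**Figure D5:**
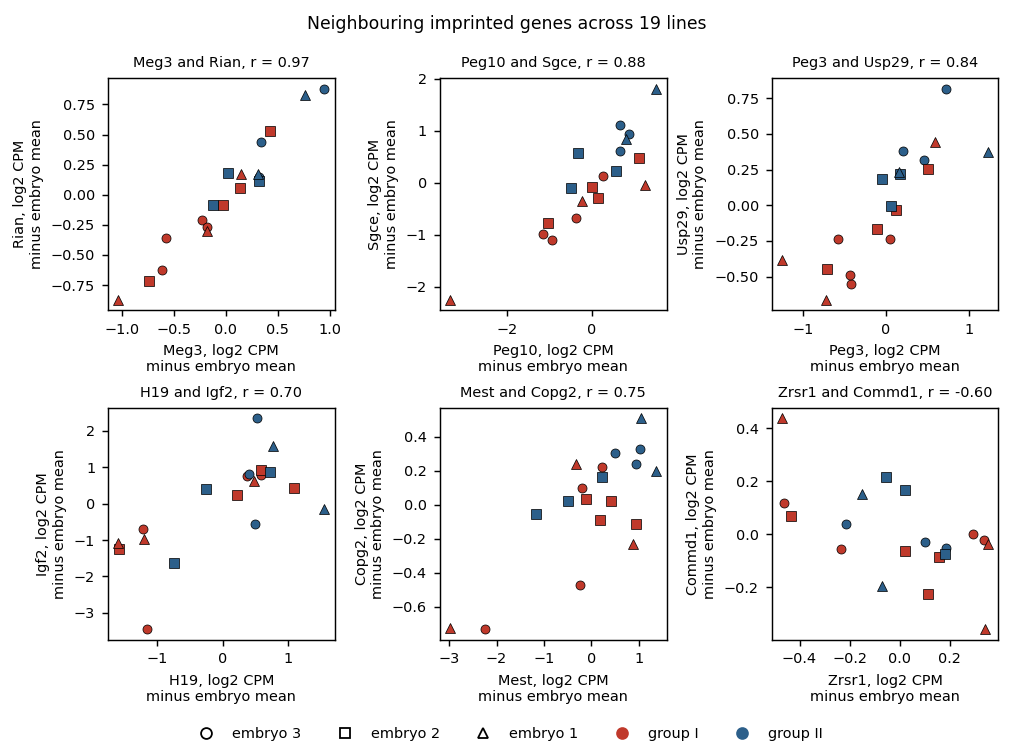
Deviation from the embryo mean in log2 CPM of both genes of a locus pair, with 1 point per line, symbols for embryos 3, 2 and 1 and red for group I or blue for group II. The lines fall along a diagonal for Meg3 and Rian (r = 0.97) and for Peg10 and Sgce (r = 0.88), while the r of 0.75 for Mest and Copg2 leans on lines 1.4 and 3.5.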

How the data were processed

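RNA-seq of 19 mESC lines was analysed from the table of gene counts that the authors deposited. Per the labels and the study's methods, reads were aligned with STAR to GRCm39, the mouse genome alone, and counted with RSEM 1.3.0. The expected counts were used as whole numbers, and strand use in the counting was not stated. The study itself used DESeq2. Of 55416 genes, 19924 were at 0 in every line, and the table had 0 columns of values that were left out.

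After the filter of filterByExpr and TMM normalization, edgeR 4.0.16 (with limma 3.58.1 and R 4.3.3) was used for quasi-likelihood tests, with embryo as the term for embryos, embryo and group for the groups, and the group within embryo for the test of whether the group difference differed. All p-values were two-sided and adjusted over all 18878 tested genes. Levels are CPM on the TMM-scaled total, and log2 CPM has a prior count of 1. The method was tested on simulated data with 100 genes changed at each fold. Of these, 75 to 91 were recovered at 2-fold and 94 to 98 at 3-fold in the comparisons of embryos and groups. The test of whether the group difference differed recovered 46 at 2-fold and 76 at 3-fold, with 17 other genes called. The changed genes were drawn from all genes above a low level, so recovery of the imprinted genes alone was not measured. The simulated spread came from the fit with embryo and group as terms, also for the embryo comparisons, whose own fit had embryo alone. Groups I and II were read from the study's figures and text, since the labels do not give them. Depth was 33846569 to 48740941 counts per line. The lowest members rest on few counts, 3 for Airn in lines 1.1 and 1.4 and 5 for Nap1l5 in line 3.5.

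The 43 genes, their alleles, the locus pairs, the marker lists and the 5 lines left out together were chosen with earlier results of these data known. Every member with a mean of at least 0.5 CPM was to be reported, in full where it was called, had a line that stood apart or belonged to a locus pair. Positions and exon lengths came from a later GENCODE annotation of GRCm39, in which 54749 of 55416 identifiers were found (42 of 43 members). Correlations used 100000 permutations of lines within embryos. A line stood apart where its gap to the nearest sister line, divided by the range of the embryo, passed Dixon's limit.

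Alternatives were DESeq2 1.42.0, RLE factors, no filter on low counts, each line left out, the 5 lines with a chromosome-wide shift left out, the fibroblast score as a covariate, the line number as a replicate block, no embryo term, no centring, and CPM in place of log2 CPM. Leaving out lines 1.5 and 2.4, whose library names carry higher numbers than those of all other lines, was chosen after seeing the data. So were the pairs of genes on different chromosomes and all alternatives for the spread among lines. Libraries of line number 1, 2 and so on in different embryos share a number only.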

Additional observations from a re-analysis of the deposited data

Results flagged for a closer look

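In 8 of 123 combinations of an imprinted gene and an embryo (6.50%, against 7.18% over all tested genes), 1 line lay farther from its nearest sister line than Dixon's limit allows on the log2 scale, and chance gives about 1 in 20 such cases. Mest had 21.44 CPM in line 3.5 and 86.3 to 207 CPM in the other lines of embryo 3. Snrpn had 231.8 CPM in line 2.1 and 109.6 to 150.8 CPM in the other lines of embryo 2. Magel2, a MAGE family gene, had 1.303 CPM in line 2.2 and 2.77 to 3.26 CPM in its sister lines, and Peg12 of the same domain had 5.33 CPM in line 2.2 and 11.5 to 18.4 CPM in its sisters. Tssc4 had 17.85 CPM in line 1.5 and 27.03 to 28.1 CPM in the other lines of embryo 1. Cd81 had 82.74 CPM in line 3.6 and 125 to 148 CPM in its sisters. Grb10 had 27.88 CPM in line 1.3 and 164 to 336 CPM in its sisters. Zrsr1 had 24.17 CPM in line 2.6 and 31.5 to 37.1 CPM in its sisters.

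Where a position was known, the other genes of the same chromosome were shifted by -0.19 (Mest, chromosome 6 in line 3.5) to 0.07 (Snrpn, chromosome 7 in line 2.1) on the log2 scale in these lines. On the CPM scale 9 combinations passed the limit, and 4 were shared with the log2 scale.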

How the results depend on the processing

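With DESeq2, 6 imprinted genes (14.6% of 41) and 1406 of all (7.45%) were called between embryos 3 and 2. Among the 3 embryos it called 11 (26.8%) and 2529 (13.4%), and between the groups 2 (4.88%) and 2471 (13.1%). A group difference that differed between embryos was called for 0 imprinted genes and 247 of all (1.31%). RLE factors gave 2 imprinted genes (4.88%) and 2281 of all (12.1%) between the groups. No filter gave 1 imprinted gene (2.44%) and 180 of 35492 genes (0.507%) for the difference between embryos in the group effect. No embryo term gave 1 imprinted gene (2.44%) and 1457 of all (7.72%) between the groups, and the fibroblast score gave 0 and 0. Without lines 2.2, 3.1, 3.2, 3.6 and 3.7, 1 imprinted gene (2.44%) and 502 of 19120 genes (2.63%) were called between embryos 3 and 1. Between embryos 3 and 2 the counts were 0 and 362 (1.89%), and for any embryo 2 (4.88%) and 1055 (5.52%). Between the groups they were 1 (2.44%) and 771 (4.03%). Without lines 1.5 and 2.4, chosen after seeing the data, 2 imprinted genes (4.88%) and 1809 of 19061 genes (9.49%) were called between the groups. The cause was not tested in these cases. No called gene and no locus pair past the threshold changed direction, whereas members that were not called did. With the fibroblast score 32 members were lower in group I (36 without it). In embryo 3 against embryo 2, 26 were lower with the score (33 without it).

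Leaving out each line in turn gave 1 to 5 imprinted and 741 to 1333 of all genes for embryos 3 and 1, 0 to 5 and 828 to 1291 for embryos 3 and 2, 2 to 5 and 593 to 1028 for embryos 2 and 1, 4 to 9 and 1471 to 2105 for any embryo, 1 to 5 and 1782 to 2553 for the groups, and 0 and 0 to 123 for the group effect by embryo. From 18687 to 19205 genes were tested in these fits. Lower in group I were 33 to 37 imprinted genes and lower in embryo 3 than in embryo 2 were 30 to 34. Of the paternally expressed genes 18 to 21 were higher in embryo 2 than in embryo 1. Locus pairs past the threshold numbered 7 to 11, and genes above the 90th percentile of spread 17 to 19. The 22 calls of single genes were lost in 151 of 418 fits with a line left out and in 47 of 158 under other settings, and the correlations of locus pairs were lost in 24 and 2.

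Line numbers did not pair the lines. Over 17 pairs of the same number, deviations from the embryo mean had r of -0.35 to 0.27, 6 were over 0.1, and 1 line correlated best with its own number. With the number as a replicate block, 1 imprinted gene (2.44%) and 880 of all (4.66%) were called between embryos 3 and 2. Between embryos 2 and 1 these were 3 (7.32%) and 549 (2.91%), and between embryos 3 and 1 they were 3 (7.32%) and 581 (3.08%).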
